A study of Mus musculus with 4 samples.

Results

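The 34 genes described here encode proteins of homologous recombination, which repairs a DNA double-strand break by copying an intact sister chromatid, and of the Fanconi anemia pathway, which removes crosslinks between DNA strands. They were taken by gene symbol from the 24411 symbols of the count table, and all 34 were found. They comprise 8 genes of the Fanconi core complex and its anchor, 2 of the FANCI-FANCD2 clamp, 5 of the BRCA complexes, 5 of the BCDX2 and CX3 complexes, 3 genes of strand annealing and exchange, 5 of end sensing and resection, 2 RecQ helicases and 4 checkpoint kinases. All 34 were among the 13507 genes that passed the filter on low counts. Messenger RNA was measured by sequencing in B220+CD43+HSA+ pro-B cells, early B cell precursors, that had been isolated by sorting from C57BL/6 bone marrow. The 2 control mice (55 and 69) had the genotype Tnpo3+/+ mb1Cre, and the 2 knockout mice (51 and 63) had the genotype Tnpo3fl/fl mb1Cre. Both genotypes thus carried mb1Cre, a Cre recombinase made from the Cd79a locus of B-lineage cells, and only the Tnpo3 alleles differed. Tnpo3 encodes transportin 3, a nuclear import receptor for splicing factors rich in serine and arginine. Ages were not given in the sources used here.

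Total counts ranged from 26211372 to 40647384 per library, and a member had between 117 and 5369 counts in a library. Tnpo3 was at 159 and 148 CPM (counts scaled to a common library total by TMM) in the control mice, listed here and below in the order 55 and 69, against 79.7 and 68.8 CPM in the knockout mice, listed in the order 51 and 63. It fell by 1.05 on the log2 scale, with an adjusted p of 0.0108 in edgeR's quasi-likelihood test, and of 0.0603 without knockout 63. B-lineage markers were detected in every library. All 14 had negative log2 fold changes, and 10 passed as lower in the knockout (adjusted p below 0.05 in edgeR). Of all genes tested, 10.9% passed as lower and 11.3% as higher. The summed level of the B-lineage markers was 10832 and 12498 CPM in the controls and 3834 and 3198 CPM in the knockouts. All 15 dendritic cell markers had positive log2 fold changes, and 14 passed as higher (summed level of 1953 and 968 against 9204 and 12075 CPM). All 15 NK and T cell markers were also positive, and 10 passed as higher (91.1 and 107 against 1251 and 424 CPM). Of 14 myeloid and erythroid markers 14 passed as lower (3568 and 2718 against 183 and 50.9 CPM). Batf3, a dendritic factor gene, had 0 counts in a control, and Epx, an eosinophil granule gene, had 0 counts in a knockout. Xist and the Y-linked gene Ddx3y placed control 55 and knockout 63 as females and control 69 and knockout 51 as males.

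Homologous recombination works in the S and G2 phases of the cell cycle, when a sister chromatid is present. The breaks that the RAG recombinase makes in pro-B cells are, by contrast, made in G1 and joined by end joining. In recombination the MRN complex and CtIP start to cut back one strand at the break, EXO1 extends the cut, and BRCA1, PALB2, BRCA2 and the BCDX2 and CX3 complexes help to build the filament on the exposed strand that invades the sister chromatid. In the Fanconi pathway the core complex attaches ubiquitin to FANCI and FANCD2, which then clamp on DNA at a stalled fork. ATM responds to double-strand breaks and ATR to exposed single strands, and they act through the kinases CHK2 and CHK1. Many of these genes are transcribed from late G1 into S phase under E2F transcription factors, so that their transcripts rise in dividing cells.

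Because E2F factors are known regulators of this group, the RefSeq promoters of the members (GRCm38.p6, 250 bases before to 50 after the start, the first one listed for each gene) were searched on both strands for the E2F letters TTTCCCGC, TTTCGCGC, TTTGCCGC and TTTGGCGC. Promoters were matched for 25 of the 34 members, and those not matched were Fancd2, Rad51d, Xrcc2, Rad54b, Rad50, Nbn, Rbbp8, Exo1 and Wrn. The E2F letters were found in 5 of 25 member promoters (20%) and in 487 of 17224 promoters of all genes in the count table (2.83%). That background includes genes that did not pass the filter on low counts, which all 34 members passed. The listed start lay 65547 bases from the gene start in Fancc, 1493 bases from it in Fancm and 976 in Rad52. In the 5 genes with E2F letters it lay 448 bases from the gene start in Rad51c and 324 in Brca2. It lay 266 bases from it in Fancg, 183 in Chek2 and 169 in Bard1. The 5 stretches are shown 5′ to 3′ on the gene's strand with 11 bases on either side, and capitals mark the matched letters.
Fancg: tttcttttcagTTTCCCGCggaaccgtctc
Bard1: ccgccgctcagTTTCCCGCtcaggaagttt
Brca2: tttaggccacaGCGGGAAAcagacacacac
Rad51c: gtttccagcgcTTTCGCGCctcttgctcta
Chek2: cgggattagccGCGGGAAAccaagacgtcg
The stretches lie at chr4:43010335-43010364 (minus strand), chr1:71103163-71103192 (minus), chr5:150522442-150522471 (plus), chr11:87404477-87404506 (minus) and chr5:110839820-110839849 (plus). The first matched base was at position -52 from the listed start in Fancg, -209 in Bard1, -168 in Brca2 and -152 in Chek2, and at base 12 after the start in Rad51c. In Brca2 and Chek2 the letters are those of TTTCCCGC on the other strand. The CCAAT box (CCAAT) was found in 16 of 25 member promoters (64%, against 38.8% of all), and the letters TTTGAA of the cell cycle homology element in 1 (4%, against 15.7%). None of the searched letter strings contains another. A match of letters is a description of the sequence, and binding was not measured here.

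Levels can be compared between genes per length of exon, here the merged exons of all GENCODE M21 transcripts of a gene. Nbn, which encodes the NBS1 subunit of MRN, was the member with the highest mean over the 4 libraries, at 15.2 CPM per kb, followed by Rad50 (13.1), the helicase gene Wrn (12.5), Chek1 (11.7) and Atm (11.5). Chek1 alone spanned 8.44 to 13.4 CPM per kb between the 2 controls, and the ranges of these 5 genes over the 4 libraries overlapped, so their order was within the spread. Rad51b had the lowest mean at 1.85 CPM per kb, below Fancc (2.37), Xrcc2 (2.40), Palb2 (2.44), Atr (2.84) and Brca2 (2.99). Atr has the longest merged exons of the members, 23629 bases beside a median of 5778. Its low place per kb depends on that length, as its mean was 63.7 CPM in the controls and 70.6 CPM in the knockouts. Rad51b held the lowest place in both controls (0.952 and 1.38 CPM per kb) and not in the knockouts, where it was at 2.77 and 2.30 CPM per kb.

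Of the 34 members, 1 passed the test as lower in the knockout and 0 as higher. Of all genes tested, 10.9% passed as lower and 11.3% as higher, which is 22.2% in either direction. The member share of 2.94% was below that background. Without knockout 51, and without knockout 63, 0 members passed. Calls over all genes also dropped when either knockout was left out. With sex as a block in the fit, 4 members passed as lower (Fancm, Fanci, Rad52 and Rbbp8) and 1 as higher (Rad51b). Of all 13507 genes, 2186 passed as lower and 2137 as higher in that fit. The median log2 fold change of the members was -0.23, beside -0.02 over all genes tested, and 24 of the 34 values were negative (70.6%, beside 51.3% of all genes). That median was -0.057 without control 69 and -0.37 without control 55. The change of single members had a median size of 0.31 on the log2 scale, beside 0.45 over all genes and 0.36 over the 7698 genes whose mean CPM lay within the members' range. At an unadjusted p below 0.05 there were 6 lower and 2 higher members, 23.5% of the 34. Of all genes, 37.8% were below that p, 19.0% as lower and 18.8% as higher. The half-width of the 95% interval of a member's log2 fold change had a median of 0.51, and 26 of 34 intervals included 0, so for those members neither direction could be told at this number of mice. In bulk RNA fewer cells of a type and less RNA per cell cannot be told apart.

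**Figure D1:**
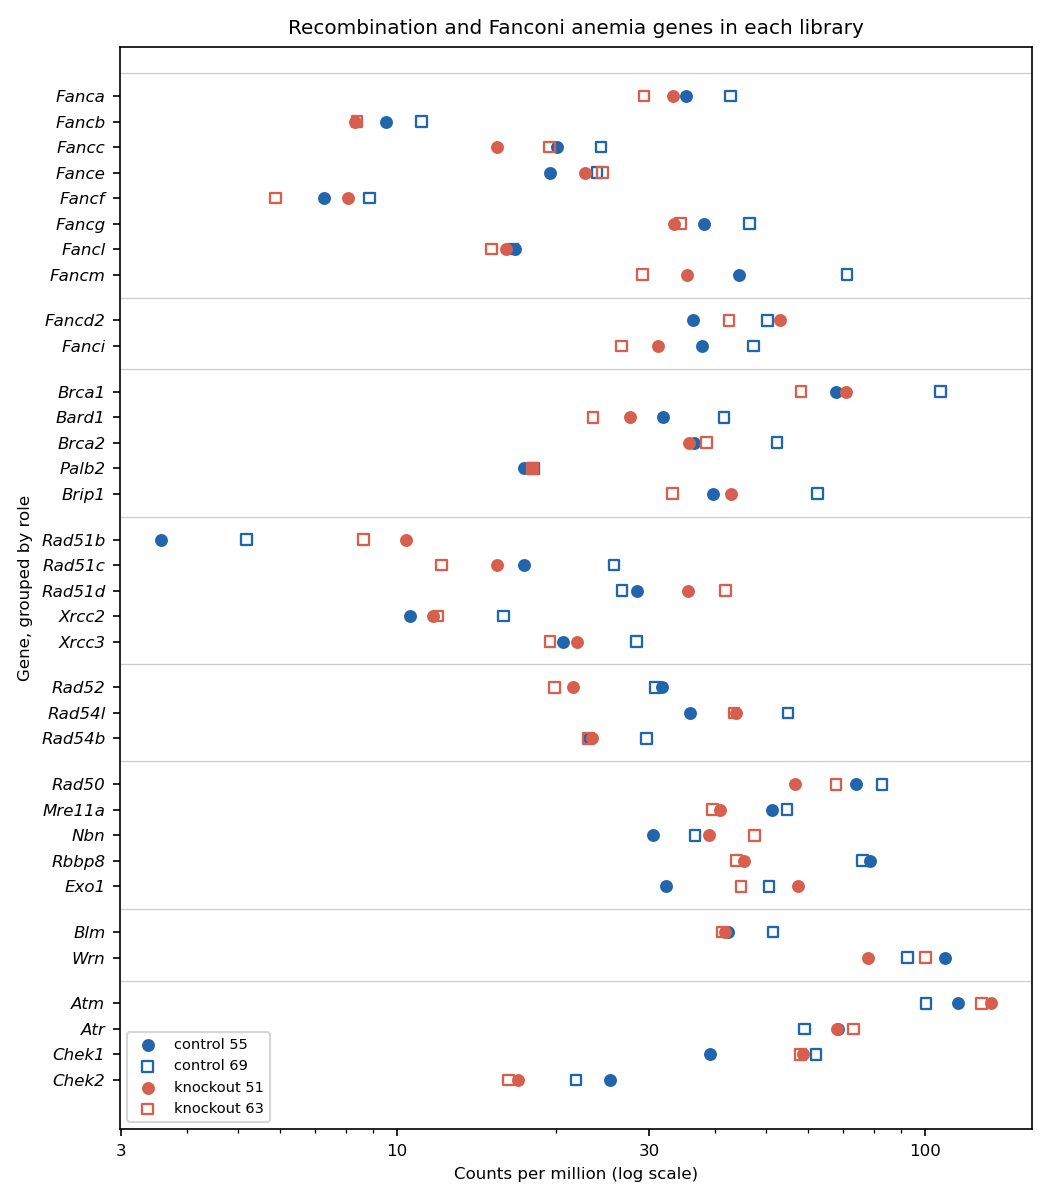
CPM (log axis) of each of the 34 genes in the 4 libraries, grouped by role from the Fanconi core complex at the top to the checkpoint kinases at the bottom; blue marks are controls and red marks knockouts. In 15 genes both knockouts lie below both controls, as in Rbbp8 and Rad52, and in 4 genes both lie above, as in Rad51b.

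Both knockouts were below both controls in 15 members, a pattern that 34.6% of all genes showed. They were above both controls in 4 members, where 33.0% of all genes showed that pattern. The 15 were Fanca, Fancb, Fancc, Fancg, Fancl, Fancm, Fanci, Bard1, Rad51c, Rad52, Rad50, Mre11a, Rbbp8, Blm and Chek2, and the 4 were Rad51b, Rad51d, Nbn and Atm. In the other 15 members the libraries of the 2 genotypes overlapped. With the mice compared within sex, 21 members were lower in both sexes, 7 were higher in both, and 6 had opposite signs (Fance, Brca2, Palb2, Xrcc2, Rad54l and Chek1). The shares of all genes were not computed for these counts, so they cannot be set against a background. The median log2 ratio was -0.36 between the males and -0.10 between the females. For Chek1 the ratio was -0.08 between the males and 0.57 between the females, and for Brca2 it was -0.55 and 0.08.

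**Figure D2:**
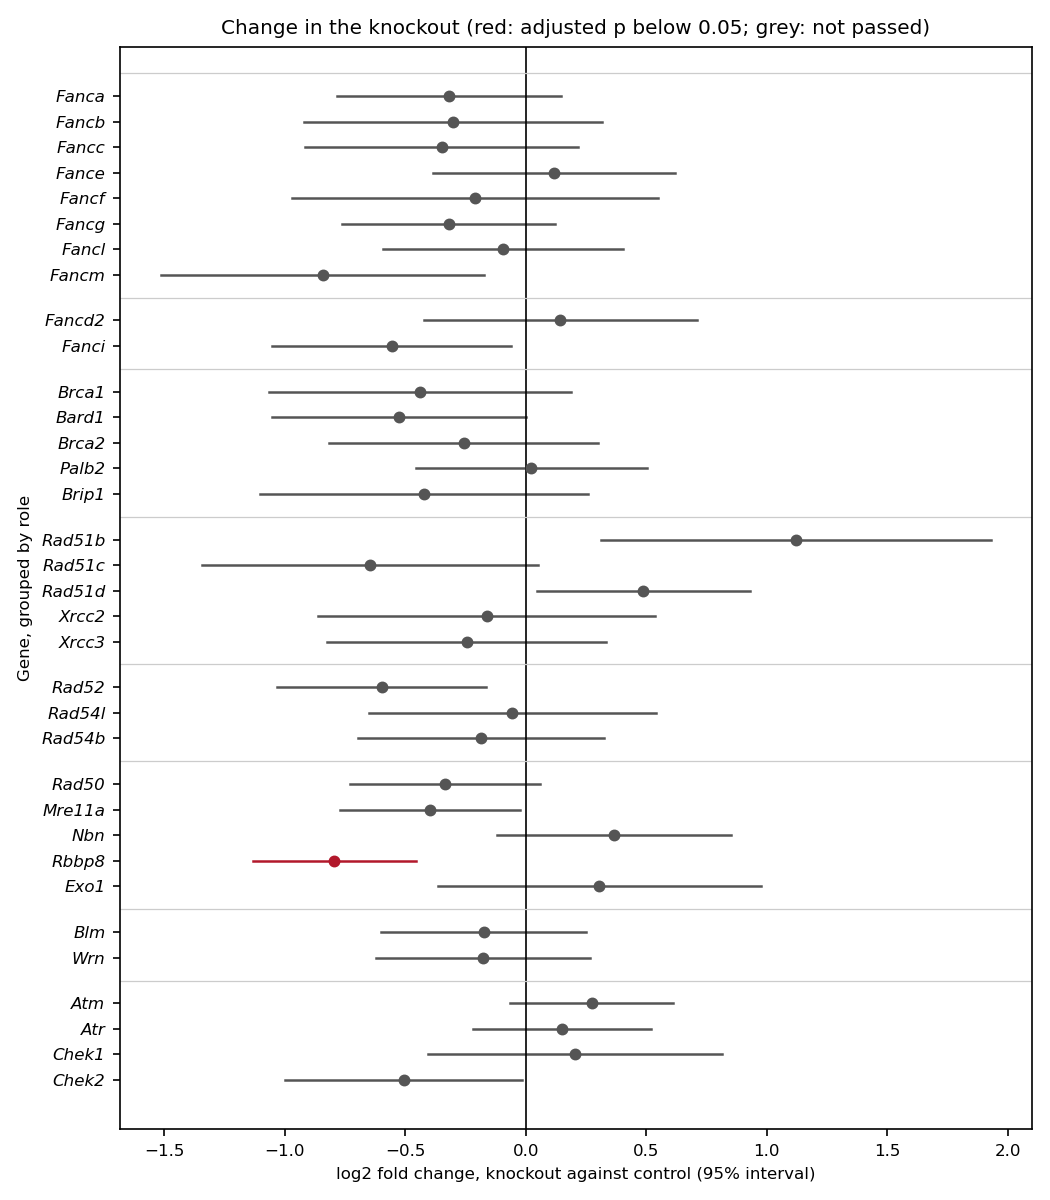
Fitted log2 fold change of each gene in the knockout against the control (points) with its 95% interval (lines), n = 2 mice per genotype, in the same order as the plot of levels. The interval of Rbbp8, in red, is the only one of a gene that passed at an adjusted p below 0.05, and the other 33 genes are grey.

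The end-sensing and resection group held the member that passed. Rbbp8, which encodes CtIP, the protein that switches on cutting by the MRN complex, was at 78.7 and 76.1 CPM in the control mice (55, 69), against 45.3 and 43.9 CPM in the knockout mice (51, 63). The 2 knockouts lay close together and well below both controls. This was a log2 fold change of -0.79 ± 0.13 (SE), for which edgeR gave an adjusted p of 0.0173. The log2 ratio was -0.75 between the males and -0.84 between the females. Without knockout 51 it was -0.82 (adjusted p of 0.0856 in edgeR) and without knockout 63 it was -0.77 (0.114), and over all 11 alternatives the adjusted p ranged from 0.00043 to 0.114. Rbbp8 lies on chromosome 18 (GRCm38, 11633276 to 11745221, plus strand), and 3.21% of its exon length overlaps an antisense gene. B-lineage markers fell and dendritic markers rose in the same libraries, and their part in the fall of Rbbp8 was not tested.

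The 3 subunits of MRN, which binds broken ends and recruits ATM, had values in both directions. Mre11a, the nuclease gene, was at 51.2 and 54.8 CPM in the control mice (55, 69), against 40.9 and 39.5 CPM in the knockout mice (51, 63), with a log2 fold change of -0.40 (adjusted p of 0.115 in edgeR). Rad50, which encodes the subunit that tethers the ends, was at 73.9 and 82.9 CPM in the control mice, against 56.6 and 67.7 CPM in the knockout mice, with a log2 fold change of -0.33. Nbn pointed the other way, at 30.5 and 36.6 CPM in the control mice, against 39.0 and 47.5 CPM in the knockout mice, with a log2 fold change of 0.37. None of the 3 passed. The libraries of the genotypes did not overlap for any of them, but 34.6% of all genes were without overlap lower and 33.0% higher. Exo1, the exonuclease gene of long resection, was at 32.2 and 50.6 CPM in the control mice, against 57.5 and 44.8 CPM in the knockout mice, so that control 69 lay between the knockouts. Its log2 fold change of 0.31 became 0.67 without control 69 and 0.05 without control 55.

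In the Fanconi core complex 0 of 8 genes passed, and 7 of 8 had negative log2 fold changes with a median of -0.31. Fancm, the DNA translocase that anchors the complex on chromatin, had the most negative value of all 34 members. It was at 44.5 and 71.1 CPM in the control mice (55, 69), against 35.3 and 29.2 CPM in the knockout mice (51, 63). The knockouts were lower than both controls, but the controls differed from each other by more than the knockouts did from control 55. This gave a log2 fold change of -0.84 ± 0.27 (SE), and edgeR put the adjusted p at 0.0781. It passed in 4 of 11 alternatives, namely without control 55 (-1.11), with sex as a block (-0.81, adjusted p of 0.0149), with DESeq2 and with no filter. It was -0.46 without control 69, with adjusted p-values from 0.00909 to 0.276 over all 11.

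The other core genes had smaller log2 fold changes. Fanca and Fancg, which belong to a common module of the complex, were at a mean of 39.0 ± 5.27 and 42.3 ± 5.85 CPM over the control mice (SD, n = 2) and of 31.3 ± 2.76 and 33.9 ± 0.690 CPM over the knockout mice, each with a log2 fold change of -0.32 that was -0.17 without control 69. Fancb and Fancl belong to the module that attaches ubiquitin, with FANCL as the ligase itself. Fancb, which lies on the X chromosome, was at 9.51 and 11.1 CPM in the control mice, against 8.32 and 8.40 CPM in the knockout mice. Fancl was at 16.7 and 16.6 CPM in the control mice, against 16.1 and 15.1 CPM in the knockout mice, a log2 fold change of -0.09 with a 95% interval from -0.59 to 0.40. Fancc, Fance and Fancf form a further module that receives the substrate, and had log2 fold changes of -0.35 (-0.20 without control 69), 0.12 and -0.21. Fancc was at 20.1 and 24.3 CPM in the control mice, against 15.5 and 19.4 CPM in the knockout mice, without overlap. Fance was the core gene with a positive value, at a mean of 21.7 ± 3.11 CPM over the control mice and 23.6 ± 1.31 CPM over the knockout mice. Fancf was at 5.87 CPM in knockout 63 and at 8.07 CPM in knockout 51, which lay between the controls (7.28 and 8.87 CPM).

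The 2 genes of the clamp that the core complex modifies had opposite signs. Fanci was at 37.7 and 47.3 CPM in the control mice (55, 69), against 31.2 and 26.6 CPM in the knockout mice (51, 63), with a log2 fold change of -0.56 ± 0.20 (SE) and an adjusted p of 0.101 in edgeR. Of 11 alternatives it passed in 1, with sex as a block (0.0383), and the adjusted p ranged up to 0.386. Fancd2 was at 36.4 and 50.3 CPM in the control mice, against 53.2 and 42.5 CPM in the knockout mice, with a log2 fold change of 0.14 and an interval from -0.42 to 0.71. Fanci was below both controls in each knockout, whereas the Fancd2 libraries overlapped. The difference between the 2 genes was not tested, and 16.0% of the exon length of Fanci overlaps Polg on the opposite strand.

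Among the BRCA genes 0 of 5 passed, and control 69 was the highest library for all 5. Brca1, which encodes a ubiquitin ligase that promotes resection, was at 67.8 CPM in control 55 and 107 CPM in control 69, and at 70.9 and 58.2 CPM in knockouts 51 and 63. Its partner gene Bard1 was at 31.9 and 41.6 CPM in the control mice, against 27.5 and 23.5 CPM in the knockout mice, without overlap. The log2 fold changes were -0.44 for Brca1 and -0.52 for Bard1 (adjusted p of 0.259 and 0.133 in edgeR). Brca1 came to -0.70 without control 55, where it passed (0.0431), and to -0.07 without control 69 (0.819), the range over all 11 alternatives being 0.0431 to 0.819. Bard1 came to -0.32 without control 69 and Brip1, whose log2 fold change was -0.42, to -0.05. Brca2, which acts in building the invading filament, and Brip1, a helicase gene whose product binds BRCA1, were also highest in control 69, with 36.4 and 39.6 CPM in control 55 and 52.4 and 62.5 CPM in control 69. Their knockouts were at 35.7 and 38.6 CPM for Brca2 and at 42.9 and 33.3 CPM for Brip1, near the level of control 55. Palb2, the bridge between BRCA1 and BRCA2, was the member with the smallest change, at 17.4 and 18.1 CPM in the control mice, against 18.03 and 18.02 CPM in the knockout mice. Its log2 fold change was 0.02 with an interval from -0.46 to 0.50, and it was -0.00031 with total counts as the scaling.

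The 5 genes of the BCDX2 and CX3 complexes, which stabilise the invading filament, had values in both directions, and 0 of 5 passed. Rad51b had the largest positive value of the 34 members and was at 3.58 and 5.19 CPM in the control mice (55, 69), against 10.4 and 8.63 CPM in the knockout mice (51, 63). These values rest on few reads: 117 and 138 counts in the control mice, the fewest of any member there, and 420 and 260 counts in the knockout mice, where Fancf and Fancb had fewer. Both knockouts were above both controls, with a log2 fold change of 1.12 ± 0.32 (SE) and an adjusted p of 0.0609 in edgeR, the smallest among the members that did not pass. It passed in 4 of 11 alternatives (no filter, DESeq2, sex as a block and without control 69), and the adjusted p ranged from 0.00967 to 0.22 over all 11. Rad51d was also higher, at 28.5 and 26.6 CPM in the control mice, against 35.5 and 41.8 CPM in the knockout mice (log2 fold change of 0.49, adjusted p of 0.106). Rad51c, shared by both complexes, was at 17.4 and 25.7 CPM in the control mice, against 15.4 and 12.1 CPM in the knockout mice, with a log2 fold change of -0.65 (adjusted p of 0.155) that was -0.34 without control 69. Xrcc2, a partner of RAD51D, was at 10.6 and 15.9 CPM in the control mice, against 11.7 and 11.9 CPM in the knockout mice, which both lay between the controls. Xrcc3, a partner of RAD51C, was at 20.6 and 28.4 CPM in the control mice, against 21.9 and 19.5 CPM in the knockout mice. Their log2 fold changes were -0.16 and -0.24, and the libraries of the genotypes overlapped. The genes of the BCDX2 complex (Rad51b, Rad51c, Rad51d and Xrcc2) thus included both the most positive member and 2 negative ones.

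Of the genes of strand annealing and exchange, Rad52 stood apart from the 2 Rad54 genes in its values. Rad52, which anneals complementary strands, was at 31.8 and 30.8 CPM in the control mice (55, 69), against 21.5 and 19.8 CPM in the knockout mice (51, 63). The 2 controls differed by less than 1 CPM, and both knockouts lay clearly below. The log2 fold change of Rad52 came to -0.60 ± 0.17 (SE). Its adjusted p in edgeR was 0.0625, and it passed with DESeq2 (0.033) and with sex as a block (0.0459), 2 of 11 alternatives that gave adjusted p-values up to 0.298. Rad54l and Rad54b encode motor proteins that act in the invasion of the intact strand. Rad54l was at 35.8 and 54.9 CPM in the control mice, against 43.9 and 43.4 CPM in the knockout mice, between the controls, with a log2 fold change of -0.06. Rad54b was at 23.1 and 29.7 CPM in the control mice, against 23.3 and 23.0 CPM in the knockout mice (-0.19), and 35.8% of its exon length is shared with Fsbp on the same strand.

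The RecQ helicases and the checkpoint kinases had 0 of 2 and 0 of 4 genes that passed. Blm, the helicase that dissolves joined strands, was at 42.4 and 51.4 CPM in the control mice, against 41.8 and 41.3 CPM in the knockout mice, and Wrn, a helicase and exonuclease gene, was at 109 and 92.6 CPM in the control mice, against 78.0 and 100 CPM in the knockout mice. Their log2 fold changes were -0.17 and -0.18. Atm was at 116 and 100.3 CPM in the control mice, against 133 and 128 CPM in the knockout mice, above both controls, with a log2 fold change of 0.27 ± 0.14 (SE). Its target kinase gene Chek2 was at 25.3 and 21.8 CPM in the control mice, against 16.9 and 16.2 CPM in the knockout mice, below both controls, with a log2 fold change of -0.51 ± 0.20 (SE). Their adjusted p-values in edgeR were 0.201 and 0.124. Atr was at a mean of 63.7 ± 6.61 CPM over the control mice and 70.6 ± 3.58 CPM over the knockout mice, with a log2 fold change of 0.15. Chek1, the kinase gene downstream of ATR, was at 39.1 and 62.1 CPM in the control mice, against 58.6 and 58.0 CPM in the knockout mice, and its log2 fold change of 0.20 was 0.57 without control 69 and -0.06 without control 55.

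The spread between the 2 controls was itself shared among members. Control 69 was above control 55 in 26 of 34 members, by a median of 0.28 on the log2 scale. Over all genes tested the median was 7.9e-05, and control 69 was the higher one in 6754 of 13507. In 10 of 34 members the difference was at least 0.5, namely Fancm, Brca1, Brca2, Brip1, Rad51b, Rad51c, Xrcc2, Rad54l, Exo1 and Chek1. Among all 13507 genes tested, control 69 was higher by at least 0.5 in 1981. In 8 members control 69 was the lower one, among them Wrn (-0.23), Chek2 (-0.22), Atr (-0.21), Atm (-0.20), Rbbp8 (-0.05) and Rad52 (-0.05). DNA replication genes, of which 33 of 33 were higher in control 69, differed by a median of 0.63, and 23 of the 33 by at least 0.5. Mitosis genes differed by a median of 0.13. The 5 members with E2F letters in the promoter had a median of 0.38, and the 20 matched members without them 0.28. Between genotypes the 5 had a median log2 fold change of -0.51 (from -0.65 to -0.26), and the 20 a median of -0.23 (from -0.84 to 1.12). The difference between these sets was not tested, and the 9 members without a matched promoter are in neither.

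The knockouts give a comparison with no library in common. Knockout 51 was above knockout 63 in 23 of 34 members, by a median of 0.05, and 18 members were higher both in control 69 and in knockout 51. With 26 members higher in control 69 and 23 in knockout 51, a large shared number follows from those counts alone. Of all 13507 genes, 6605 were higher in knockout 51 and 4203 were higher both there and in control 69. Across the 34 genes the log2 ratio of control 69 to control 55 and that of knockout 51 to knockout 63 had a Pearson correlation of 0.48 and a Spearman correlation of 0.47. Across all 13507 genes the correlations were 0.26 and 0.29, and across 33 replication genes 0.65 and 0.58. Genes are not independent replicates, and the points of each axis share their 2 libraries. Control 69 and knockout 51 are the males, and with 1 male and 1 female a genotype, sex and the single mouse cannot be told apart.

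**Figure D3:**
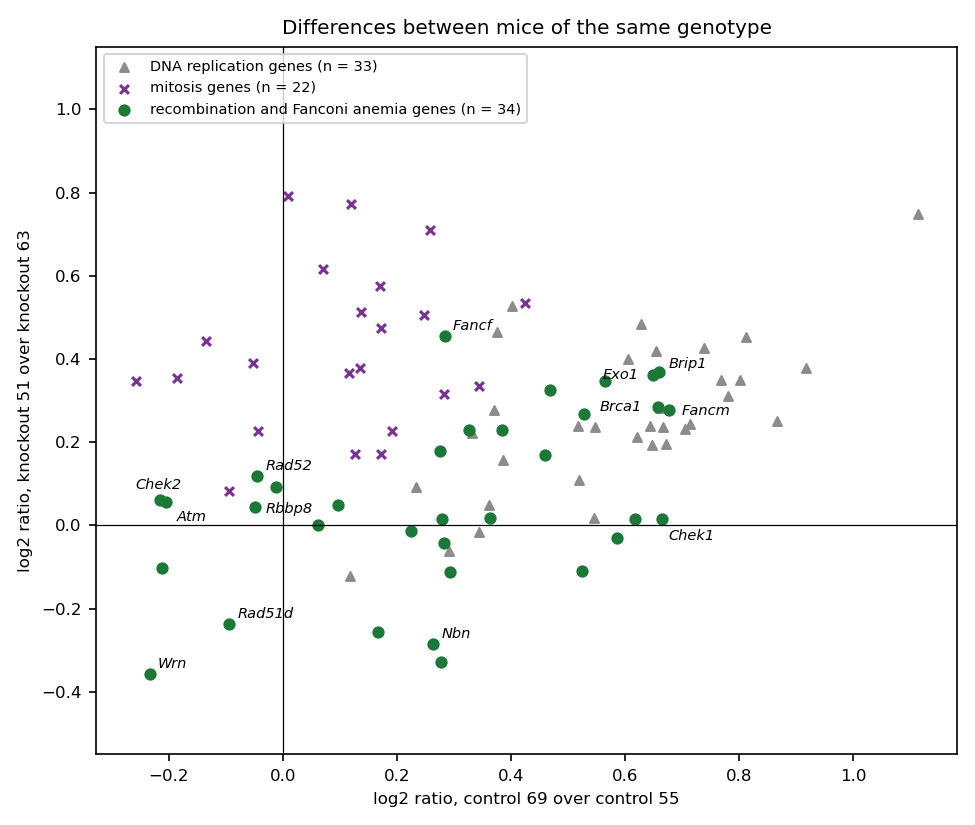
Log2 ratio of control 69 to control 55 (horizontal) against log2 ratio of knockout 51 to knockout 63 (vertical), for the 34 recombination and Fanconi anemia genes, 33 DNA replication genes and 22 mitosis genes, 1 point per gene. Brca1, Brip1, Exo1 and Fancm lie among the replication genes in the upper right, and Wrn, Rad52, Rbbp8, Atm and Chek2 lie near or left of the vertical zero line.

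The mean log2 CPM over the members was 4.92 in control 55, 5.20 in control 69, 4.93 in knockout 51 and 4.87 in knockout 63. The knockouts were thus at the level of control 55. The mean of the DNA replication genes was 6.69 and 7.27 in the control mice, against 6.98 and 6.72 in the knockout mice, a difference of -0.13 between genotypes where the members differed by -0.16, and 0 of 33 replication genes passed. The mitosis genes were at 6.96 and 7.06 in the control mice, against 6.11 and 5.69 in the knockout mice, a difference of -1.11. All 22 had negative log2 fold changes, and 21 passed as lower, beside 10.9% of all genes tested. Set against the replication genes of the same library, the members had a median log2 difference of -0.09 between genotypes. The same median over all genes tested was 0.11. On that relative scale 8 members were without overlap lower in the knockout, 19.7% of all genes being so (Fancm, Fanci, Brca1, Bard1, Brip1, Rad51c, Rad52 and Rbbp8). Another 6 were higher, where 30.5% of all genes were (Fancd2, Rad51b, Rad51d, Nbn, Exo1 and Chek1), and the other 20 overlapped.

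**Figure D4:**
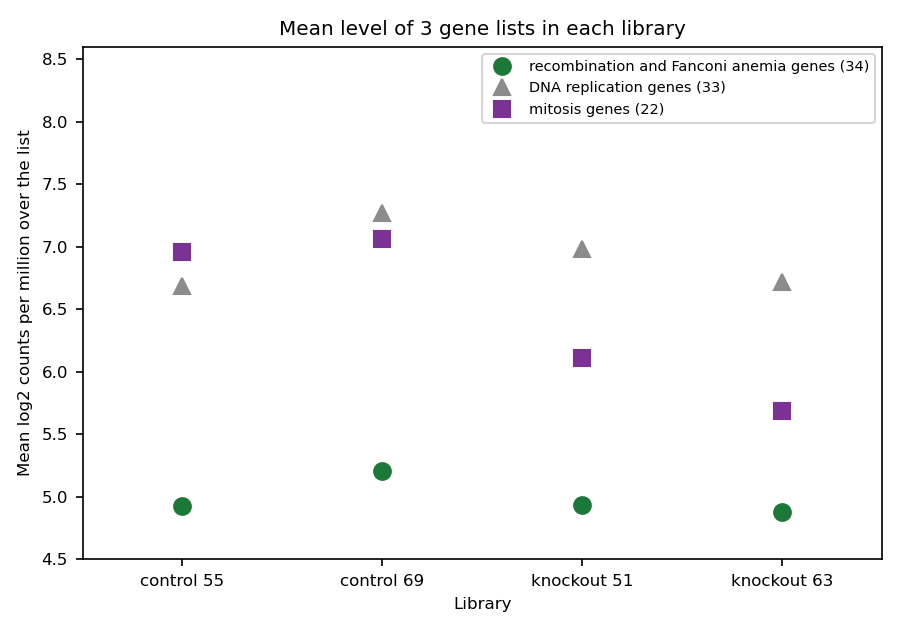
Mean log2 CPM over the 34 recombination and Fanconi anemia genes, 33 DNA replication genes and 22 mitosis genes in each of the 4 libraries. The circles of the recombination genes stay between 4.87 and 5.20, with control 69 the highest, while the squares of the mitosis genes lie lower in both knockouts.

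The 69 further genes of these pathways gave 7 that fell and 0 that rose in edgeR, with a median log2 fold change of -0.19. Their share of lower calls, 10.1%, was near the 10.9% of all genes tested, while no gene passed as higher where 11.3% of all genes did. Slx4, the scaffold of structure-cutting nucleases and itself a Fanconi gene, was at 99.5 and 98.2 CPM in the control mice (55, 69), against 51.9 and 50.8 CPM in the knockout mice (51, 63), with a log2 fold change of -0.95 ± 0.13 (SE) and an adjusted p of 0.0106. Mnd1, an accessory of strand exchange best known from meiosis, was at 15.2 and 21.6 CPM in the control mice, against 7.01 and 4.71 CPM in the knockout mice, with a log2 fold change of -1.65 ± 0.32 (SE). Rmi2, a partner of the BLM helicase, was at 23.8 and 36.1 CPM in the control mice, against 16.0 and 12.6 CPM in the knockout mice, with a log2 fold change of -1.06. In each of these genes both knockouts lay below both controls, a pattern that 34.6% of all genes showed. The genes were named because they passed as lower in these libraries, so the pattern adds no support.

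The other genes that fell belong to the chromatin response, the BRCA1-A complex and the checkpoint. H2afx, the histone gene whose product is marked at breaks, was at 235 and 343 CPM in the control mice, against 161 and 101 CPM in the knockout mice, a log2 fold change of -1.14 (adjusted p of 0.0457 in edgeR). Uimc1, which encodes the RAP80 subunit of the BRCA1-A complex, fell by 0.86 on the log2 scale and Bap1, a deubiquitinase gene, by 0.70. Hus1, a subunit of the checkpoint clamp, fell by 0.63, with an adjusted p of 0.0491 near the threshold. Without knockout 51, 2 of the 7 genes passed (Mnd1 and H2afx), and without knockout 63 none did. The number of calls over all genes also dropped there, from 2992 to 1616 and 1277.

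The genomic span of the members ranged from 1691 bases for Fancf, which has a single exon, to 517409 bases for Rad51b (chromosome 12, 79297282 to 79814690), with a median of 51374 bases beside 22489 bases over all genes tested. The Spearman correlation of span with the log2 fold change was -0.08 across the 34 members and -0.04 across 12990 genes with a span. Exons of 16 members overlap those of another annotated gene, and in 7 of them at least 10% of the exon length is shared, among them Fanca with Zfp276, Fancl with Vrk2 and Rad54l with Lrrc41. The strand setting of the counting is not given in the sources used here, so reads of such stretches cannot be assigned with certainty. Fancm shares 5.51% of its exon length with a gene model on the opposite strand that GENCODE lists as yet to be checked, and Rad51b and Rad52 share none.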

How the data were processed

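The authors deposited raw counts per gene symbol for each library, and a table of normalized values that was not used here. The submitters' processing notes list deepTools 3.3.2, DESeq2, featureCounts, SAMtools 1.10, STAR 2.7.4a and Subread 2.0.0, and name GRCm38 and mm10 as builds. No source used here gives the annotation, the strand setting or the handling of multiply aligned reads.

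The counts were tested with edgeR 4.0.16 (R 4.3.3): filterByExpr (minimum count 10, minimum total 15), TMM, and the quasi-likelihood F test of knockout against control over all 4 libraries with no covariate. P-values were adjusted by Benjamini-Hochberg over 13507 genes, with a threshold of 0.05. Standard errors are the log2 fold change over the root of F. Log2 CPM used a prior count of 2. The procedure was run on simulated counts, where the check was on the median estimate of planted fold changes. These were larger than the changes of most members, so power at the members' changes was not assessed. An exact permutation test of 2 against 2 mice cannot go below 0.333, so none was used. Each library came from its own mouse, and replicates differed beyond sampling noise (mean chi-square per gene of 71.7 between controls and 51.9 between knockouts).

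All members were to be named, with Tnpo3 and the further pathway genes that passed. Batf3, Epx, Xist and Ddx3y were added after their values were seen. The members and lists were chosen with earlier results of these data known. The alternatives tried were DESeq2 size factors within edgeR, total counts, no filter, a strict filter (at least 1 CPM in 2 libraries, mean count 50 or more), DESeq2 1.42.0, limma-voom (limma 3.58.1), sex as a block and each library left out.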

Additional observations from a re-analysis of the deposited data

How the results depend on the processing

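The number of members that passed stayed at 1 lower (Rbbp8) and 0 higher with DESeq2 size factors, total counts, the stricter filter and limma-voom. Without a filter 2 members were lower (Fancm and Rbbp8) and 1 higher (Rad51b), with DESeq2 3 were lower (Fancm, Rad52 and Rbbp8) and 1 higher (Rad51b), and with sex as a block, which leaves 1 residual degree of freedom, 4 were lower (Fancm, Fanci, Rad52 and Rbbp8) and 1 higher (Rad51b). With a library left out the count ranged from 0 to 3 lower and from 0 to 1 higher, and the median log2 fold change of the members from -0.37 without control 55 to -0.057 without control 69. Relative to DNA replication genes the median was -0.095. For the further pathway genes the count ranged from 0 to 7 lower and from 0 to 1 higher with a library left out, and was 11 lower with sex as a block. Over all 13507 genes, 1468 were lower and 1524 higher in the main fit. Without a filter 1606 and 1887 of 17534 genes were, and with DESeq2 1894 and 2063 of the 14815 genes given an adjusted p. With sex as a block 2186 and 2137 of 13507 genes were. The count ranged from 530 to 1580 lower and from 747 to 1649 higher with a library left out. Leaving 1 library in a genotype assumes that it varies like the other genotype. Values that did not pass changed sign for Palb2 with total counts (-0.00031) and, with a library left out, for Fancf (-0.46 to 0.0033), Fancd2 (-0.039 to 0.40), Brca2 (-0.46 to 0.027), Xrcc2 (-0.40 to 0.16), Xrcc3 (-0.42 to 0.0045), Rad54l (-0.30 to 0.29), Rad54b (-0.32 to 0.0057) and Chek1 (-0.058 to 0.57). The cause was not tested. With DESeq2 size factors 15 members were without overlap lower and 5 higher, against 15 and 4 with TMM. With TMM 34.6% of all genes were without overlap lower and 33.0% higher, and these shares were not computed with DESeq2 size factors. No pairing by mouse number was possible because the genotypes share none, and the sex block is the pairing by sex. With 2 mice a genotype, member differences as large as 1.12 on the log2 scale did not pass.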
